A study of Mus musculus with 21 samples.

Results

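The genes described here are 10 regulators of dendritic spines and of the postsynaptic density: *Syndig1*, *Syndig1l*, *Pak1*, *Pak3*, *Ptk2*, *Ptk2b*, *Plk2*, *Homer1*, *Arc* and *Dlg4*. They are 10 of the 35266 genes in the count table, and all 10 were among the 16513 genes that passed the filter on low counts (over 1 CPM, the count of a gene per 1000000 counts of its library, in at least 3 libraries). Of these, *Syndig1*, *Syndig1l*, *Pak3*, *Ptk2b* and *Plk2* were picked out for their change in AGRP neurons of food-deprived mice, and the other 5 were set beside them as relatives or partners. The comparisons that involve this choice are therefore given as values without a test, and only the effect of food deprivation in POMC neurons was tested for the 10 genes.

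Fluorescent neurons of the hypothalamic arcuate nucleus were picked by hand from male mice on a C57BL/6J background, and each library came from the pooled neurons of 1 mouse. AGRP neurons, which drive appetite, were taken from NPY-hrGFP mice, in which the *Npy* promoter drives the fluorescent protein, and POMC neurons, which reduce appetite, from Pomc-GFP mice, whose fluorescent protein is Topaz in the study's methods. Fed mice had food throughout, and food-deprived (FD) mice had water but no food for 24 hr. Mice of both conditions were moved to separate cages a day before and were 46 to 56 days old, with 5 fed and 6 FD mice for AGRP neurons and 5 fed and 5 FD mice for POMC neurons. The reporter marks cells by *Npy* rather than by *Agrp* itself.

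Most excitatory synapses on spiny neurons end on dendritic spines, small actin-filled protrusions whose head carries the postsynaptic density, a protein sheet that holds glutamate receptors in place. Spine shape follows the actin skeleton, on which kinases such as the p21-activated kinases (PAK) act. Scaffold proteins such as PSD-95 and Homer tie receptors to this skeleton, and activity-induced proteins such as Arc and PLK2 adjust it. AGRP neurons bear spines, and loss of food is known to raise their number and their excitatory input.

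The libraries held 9822298 to 37663979 counts over genes, and 3 counts corresponded to 0.0797 to 0.305 CPM. Each came from 44 to 214 sorted cells. *Agrp* and *Npy* lay at 2053 to 19930 and at 10010 to 48990 TPM (transcripts per 1000000) in the AGRP libraries and *Pomc* at 7162 to 23060 TPM in the POMC libraries, matching their labels. Summed markers of astrocytes reached at most 62.5 TPM in any library, oligodendrocytes 47.8 TPM, microglia 12.5 TPM and endothelial cells 5.78 TPM. The microglial *Itgam* and the endothelial *Cldn5* were at 0 in every fed AGRP and every POMC library. Of the markers of these 4 cell types, the astrocyte gene *Aldh1l1* alone passed the test between FD and fed AGRP neurons, at a mean of 1.69 TPM against 0.0258 TPM. *Sst*, a peptide gene of other arcuate neurons, lay at 440.1 to 2334 TPM in FD and 593.0 to 2294 TPM in fed AGRP libraries, and its part in the values below was not tested.

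Levels are given on a pair of scales. Normalized CPM, scaled by TMM factors, compares 1 gene between libraries, and TPM, which accounts for transcript length, compares genes with each other. The fitted log2 fold changes come from edgeR's quasi-likelihood fit over all 4 groups, with their standard error (SE), and q is the p-value adjusted by the Benjamini-Hochberg method over all 16513 genes.

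In AGRP neurons, most of the 10 genes lay higher in FD than in fed mice. For 6 of the 10 (*Syndig1*, *Syndig1l*, *Pak3*, *Ptk2*, *Ptk2b* and *Plk2*) every FD library was above every fed library, and none was lower in this way. Over all tested genes 4.08% had FD libraries wholly above fed libraries and 3.57% wholly below. The median log2 fold change was 1.08 for the 10 genes and −0.02 for all genes. Since the genes were picked on this comparison, these counts describe them and are no evidence of a group effect.

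**Figure D1:**
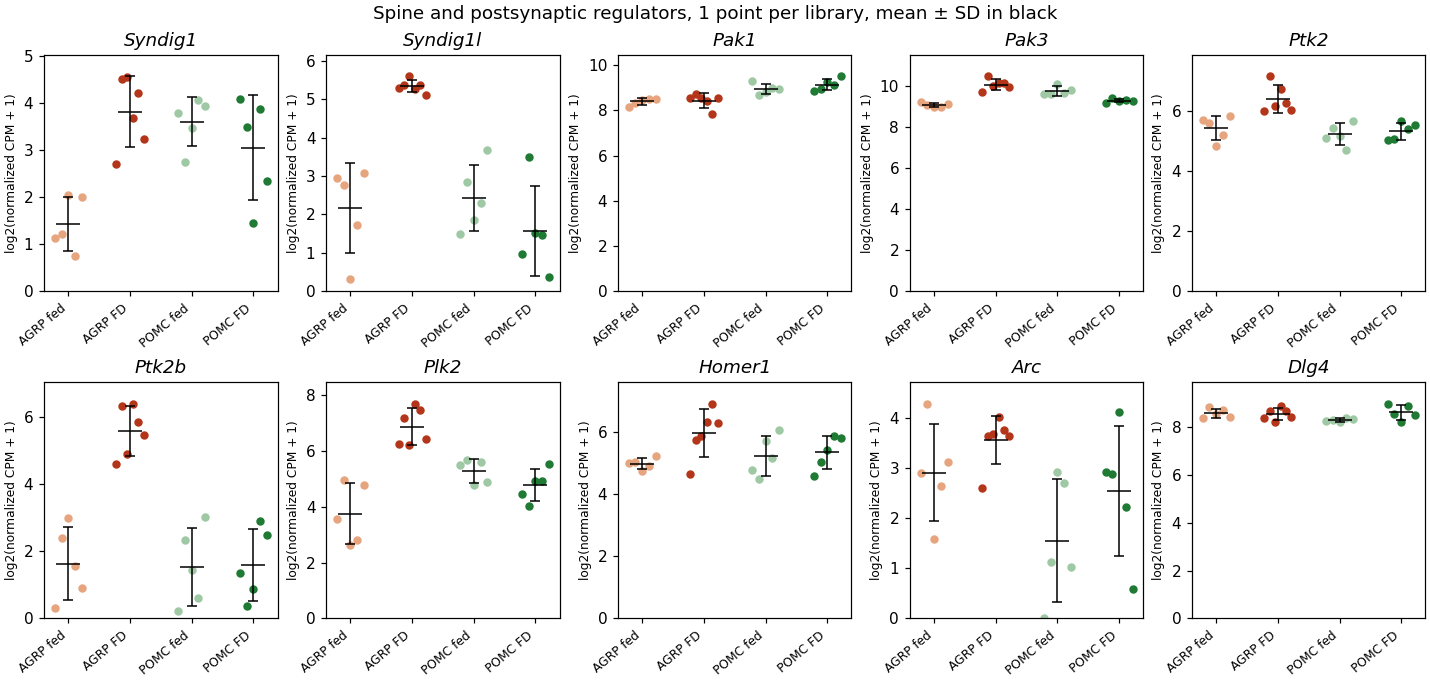
Each panel shows 1 gene, with log2(normalized CPM + 1) on the vertical axis, 1 point per library in the 4 groups, and the group mean ± SD of that value in black. The FD AGRP libraries (dark red) lie wholly above the fed AGRP libraries (light red) for *Syndig1*, *Syndig1l*, *Pak3*, *Ptk2*, *Ptk2b* and *Plk2*, while the groups overlap for *Pak1*, *Homer1*, *Arc* and *Dlg4*.

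*Syndig1* encodes SynDIG1, a membrane protein that promotes the assembly of AMPA-type glutamate receptors at new excitatory synapses. In fed AGRP neurons its normalized CPM was 1.19, 1.32, 3.10, 0.664 and 3.00 in the 5 libraries. In FD AGRP neurons the lowest, median and highest of the 6 libraries were 5.54, 14.6 and 22.6 normalized CPM. All FD libraries were above all fed ones, and the fitted log2 fold change was 2.98 ± 0.60 (SE). The fed values rest on only 14 to 56 counts per library.

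POMC neurons of fed mice carried *Syndig1* at 12.8, 5.70, 10.1, 15.8 and 14.3 normalized CPM, all above the fed AGRP libraries. In FD POMC neurons it was at 16.0, 10.2, 1.74, 13.7 and 4.06 normalized CPM, a wider range that enclosed the fed one (log2 fold change −0.36 ± 0.57, q = 0.874). In order of group means, FD AGRP (14.6), fed POMC (11.7) and FD POMC (9.13) neighboured each other within their spread, and fed AGRP neurons (1.86) were lowest, with libraries that overlapped those of FD POMC neurons.

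*Syndig1l*, a relative of *Syndig1* in the same protein family, has a less well known role. Its normalized CPM in fed AGRP neurons was 6.64, 5.84, 0.244, 2.28 and 7.50. In the 6 FD libraries the lowest, median and highest values were 33.6, 39.1 and 47.3 normalized CPM. The lowest FD library was thus above the highest fed library, with a fitted log2 fold change of 3.13 ± 0.71 (SE) that was 3.72 with limma-voom.

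In POMC neurons *Syndig1l* stayed low in both conditions. Fed libraries were at 1.82, 6.22, 2.59, 3.88 and 11.7 normalized CPM and FD libraries at 0.959, 10.3, 1.86, 1.77 and 0.290. The fitted log2 fold change was −0.77 ± 0.68 (q = 0.717), and it was −2.09 (q = 0.178) without FD replicate 2, the library at 10.3. FD AGRP neurons thus stood above all other libraries, and the other 3 groups did not differ beyond their spread.

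On the TPM scale *Syndig1* was above *Syndig1l* in all 5 fed and all 5 FD POMC libraries and below it in all 6 FD AGRP libraries. The mean log2 ratio of *Syndig1* to *Syndig1l* was 1.60 ± 1.23 (SD, n = 5) in fed POMC neurons and −1.37 ± 0.71 (SD, n = 6) in FD AGRP neurons. In fed AGRP neurons it was −0.61 ± 2.37 (SD, n = 5), with *Syndig1* above *Syndig1l* in 1 of 5 libraries. *Syndig1l* was thus the higher of the pair in most AGRP libraries of either condition and in no POMC library.

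*Pak1* and *Pak3* encode group I p21-activated kinases, which act below Rac and Cdc42 to control actin in spines. *Pak3* was at 595.2, 532.6, 505.6, 506.3 and 556.5 normalized CPM in the fed AGRP libraries. The lowest, median and highest FD AGRP libraries were at 827.2, 1076 and 1418 normalized CPM, with no overlap and a fitted log2 fold change of 1.01 ± 0.13 (SE). *Pak1* lay at 287.2 to 366.9 normalized CPM in fed and 225.0 to 420.9 in FD AGRP libraries, with the FD range enclosing the fed one (log2 fold change 0.06 ± 0.15).

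In POMC neurons *Pak3* lay the other way. The 5 fed libraries were at 771.8, 769.7, 1114, 804.7 and 905.3 normalized CPM, and the 5 FD libraries at 574.7, 673.6, 614.8, 627.3 and 616.3. Every FD library was below every fed library, and the fitted log2 fold change was −0.49 ± 0.13 (SE). With edgeR this missed the threshold (q = 0.0885), whereas DESeq2 gave a q of 0.0403. Of all tested genes, 1.27% had FD POMC libraries wholly below the fed ones in normalized CPM. On the TPM scale the *Pak3* ranges overlapped, at 227.0 to 406.6 in fed and 208.0 to 250.3 in FD POMC libraries.

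The order of *Pak3* means was FD AGRP (1086), fed POMC (873.1), FD POMC (621.3) and fed AGRP (539.2). Libraries overlapped between the first pair and between the last pair, and the fed and FD POMC libraries did not. *Pak1* was highest in FD POMC neurons at 464.1 to 727.3 normalized CPM, overlapping the fed POMC range of 412.2 to 626.9 (log2 fold change 0.20 ± 0.16, q = 0.669).

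**Figure D2:**
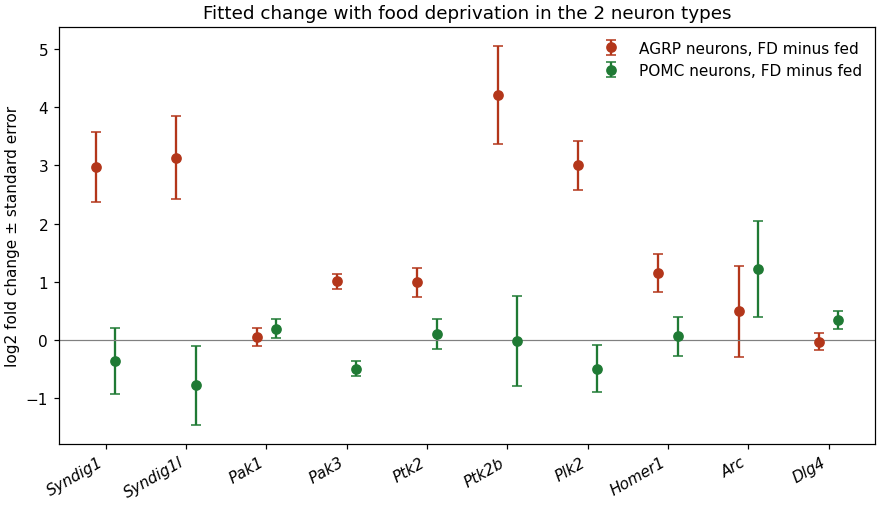
The vertical axis gives the fitted log2 fold change of FD against fed for each of the 10 genes, with its standard error as the bar, in AGRP neurons (red) and POMC neurons (green). *Pak3* is at 1.01 in AGRP (−0.06 when scaled to the spike-in RNA) and −0.49 in POMC neurons. *Pak1* and *Dlg4* are near 0 in AGRP neurons (−0.92 and −0.98 when scaled to the spike-in RNA).

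On the TPM scale *Pak1* was above *Pak3* in all 5 fed AGRP libraries, by a mean log2 ratio of 0.90 ± 0.23 (SD). In FD AGRP neurons the mean log2 ratio was −0.06 ± 0.41 (SD), with *Pak1* higher in 3 of 6 libraries. In POMC neurons it was 0.77 ± 0.36 in fed and 1.44 ± 0.27 in FD libraries. FD AGRP neurons were the group in which the 2 kinases were at similar levels per length.

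*Ptk2* encodes focal adhesion kinase (FAK), and *Ptk2b* encodes its relative PYK2, a calcium-responsive tyrosine kinase present at synapses. *Ptk2b* was low in fed AGRP neurons, with 0.229, 4.24, 6.88, 1.95 and 0.857 normalized CPM from 5 to 113 counts. The FD AGRP libraries had a lowest, median and highest value of 23.2, 49.4 and 83.0 normalized CPM. This was the largest fitted log2 fold change of the 10 genes in AGRP neurons, at 4.21 ± 0.84 (SE), and its SE was also the largest of the 10. It was 4.85 without fed replicate 3, 4.97 with limma-voom and 4.91 with the spike-in set as a block.

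In POMC neurons *Ptk2b* was as low as in fed AGRP neurons. It was at 0.166, 4.04, 1.69, 0.531 and 7.19 normalized CPM in fed and 1.54, 0.286, 0.846, 6.48 and 4.64 in FD libraries (log2 fold change −0.02 ± 0.77, q = 0.998). FD AGRP neurons stood above all 15 other libraries, and the other 3 groups did not differ beyond their spread.

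*Ptk2* was at 51.1, 47.3, 27.6, 35.7 and 55.8 normalized CPM in fed AGRP neurons. The lowest, median and highest FD AGRP values were 63.3, 73.1 and 140.5, so that the groups did not overlap (log2 fold change 0.99 ± 0.25). In POMC neurons it lay at 24.8 to 49.5 normalized CPM in fed and 31.4 to 49.1 in FD libraries (log2 fold change 0.10 ± 0.26, q = 0.933). Per length, *Ptk2* was above *Ptk2b* in all 21 libraries. The mean log2 TPM ratio was 4.22 ± 2.06 (SD) in fed and 0.51 ± 0.45 (SD) in FD AGRP neurons.

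*Plk2* encodes polo-like kinase 2, which is induced by activity and marks the spine protein SPAR for breakdown. Its normalized CPM in fed AGRP neurons was 10.9, 30.1, 5.17, 6.02 and 26.8. The FD AGRP libraries had a lowest, median and highest value of 73.1, 114.8 and 205.5 normalized CPM. The groups were far apart, with a fitted log2 fold change of 3.00 ± 0.42 (SE).

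In POMC neurons *Plk2* was at 43.9, 50.8, 26.6, 47.8 and 28.6 normalized CPM in fed and 21.1, 15.3, 29.6, 29.5 and 45.3 in FD libraries. These ranges overlapped, and the fitted log2 fold change was −0.49 ± 0.40 (q = 0.683). The order of group means was FD AGRP (126.5), fed POMC (39.5), FD POMC (28.2) and fed AGRP (15.8). The last 3 overlapped from neighbour to neighbour.

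*Homer1* encodes a scaffold that links metabotropic glutamate receptors to Shank proteins, in long forms and in a short form induced by activity. The counts are summed over the gene, so that the forms cannot be separated. In fed AGRP neurons it lay at 31.6, 32.1, 26.1, 29.4 and 36.4 normalized CPM. The FD libraries spread from 24.3 over a median of 67.8 to 120.5, with replicate 1 below every fed library and the other 5 above all of them. The fitted log2 fold change was 1.15 ± 0.33 (SE).

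In POMC neurons *Homer1* was at 21.5 to 66.2 normalized CPM in fed and 23.4 to 58.5 in FD libraries (log2 fold change 0.07 ± 0.34, q = 0.971). All neighbours in the order of its 4 group means overlapped.

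*Arc* encodes an activity-induced protein that promotes the removal of AMPA receptors from synapses. It was the least expressed of the 10 genes per length in FD AGRP neurons, at a mean of 10.7 TPM. Its normalized CPM was 6.45, 18.4, 2.01, 5.26 and 7.66 in fed AGRP neurons and 5.07, 11.6 and 15.1 for the lowest, median and highest FD library. These overlapped, with a log2 fold change of 0.50 ± 0.78 (SE). In POMC neurons it was at 0, 1.19, 6.56, 5.47 and 1.03 normalized CPM in fed and 6.55, 6.30, 16.3, 3.63 and 0.508 in FD libraries (log2 fold change 1.23 ± 0.83, q = 0.596). The library with 0 counts allowed at most 0.165 CPM. At this depth and spread no difference in *Arc* was detected in POMC neurons.

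*Dlg4* encodes PSD-95, the main scaffold of the postsynaptic density. It was at 331.0 to 451.0 normalized CPM in fed and 293.6 to 459.6 in FD AGRP libraries, with the FD range enclosing the fed one (log2 fold change −0.03 ± 0.14). In POMC neurons the fed libraries lay closely together at 304.1, 309.6, 292.0, 329.8 and 320.9 normalized CPM. The FD libraries were at 496.3, 364.5, 293.1, 466.2 and 354.3, of which 4 were above all fed libraries. The fitted log2 fold change was 0.34 ± 0.15 (edgeR q = 0.339), which missed the threshold.

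In POMC neurons 0 of the 10 genes thus passed q under 0.05 with edgeR. At an unadjusted p under 0.05 there were 2, *Pak3* and *Dlg4*, and with DESeq2 1 passed, *Pak3*. Among all tested genes 0.375% passed q and 12.2% an unadjusted p under 0.05. The median log2 fold change was 0.03 for the 10 genes and −0.02 for all genes. A value that misses the threshold does not show that a level was the same in fed and FD mice.

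The effect of food deprivation in AGRP neurons exceeded that in POMC neurons by 4.23 ± 1.11 (SE, log2) for *Ptk2b*, 3.90 ± 0.97 for *Syndig1l*, 3.49 ± 0.57 for *Plk2*, 3.34 ± 0.81 for *Syndig1* and 1.50 ± 0.19 for *Pak3*. For *Homer1* the difference was 1.08 ± 0.47 and for *Ptk2* 0.89 ± 0.36. It was below 0 for *Pak1* (−0.14), *Dlg4* (−0.37) and *Arc* (−0.73). These differences contain the comparison on which the genes were chosen and were not tested. Each library is a pool of cells, so that fewer cells expressing a gene and less RNA per cell cannot be told apart.

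A known amount of ERCC spike-in RNA was added in 3 ways, at 1 µl, at 10 µl, or in proportion to the cell number. A library with 1 µl for its 50 cells, FD AGRP replicate 2, belongs to both the 1 µl and the cell-number scheme and was counted with the latter. The AGRP libraries held 1 FD and 1 fed library at 1 µl, 2 of each at 10 µl, and 3 FD and 2 fed by cell number. These are the libraries on which the genes were chosen, so that the values within sets describe them only. Within each of these 3 sets the FD AGRP mean was above the fed one for 8 of the 10 genes, with *Pak1* higher in 2 and *Dlg4* in 1 of the 3 sets. The within-set log2 differences were 0.92 to 1.02 for *Pak3*, 2.74 to 3.89 for *Plk2*, 3.24 to 5.54 for *Ptk2b* and 0.36 to 1.90 for *Homer1*, and the highest for the last 3 came from the pair of libraries at 1 µl. For POMC neurons the 1 µl set alone held both conditions, with 3 libraries each, the other 2 FD libraries being at 10 µl and the other 2 fed libraries by cell number. In it *Pak3* differed by −0.59 (log2, FD minus fed), *Dlg4* by 0.26 and *Homer1* by −0.63, the last against the sign of the fit over all libraries.

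Scaling to the spike-in RNA instead of TMM gave a median log2 fold change of all genes of −0.93 in AGRP and −1.28 in POMC neurons, against −0.02 in both with TMM. On that scale *Pak3*, *Ptk2* and *Homer1* fell slightly below 0 in AGRP neurons, at −0.06, −0.33 and −0.16. *Arc* was at −0.49, and *Pak1* (−0.92) and *Dlg4* (−0.98) lay near the median of all genes. *Ptk2b* stayed at 4.00, *Syndig1l* at 1.87, *Syndig1* at 1.84 and *Plk2* at 1.45. Relative to the shifted median of all genes, the values were 0.87 for *Pak3*, 0.60 for *Ptk2* and 0.77 for *Homer1*. In POMC neurons 4 genes with small positive values turned negative on this scale, *Pak1* (−1.11), *Ptk2* (−1.22), *Homer1* (−0.99) and *Dlg4* (−1.02). In POMC neurons the conditions also differed in how the spike-in was added, which cannot be told apart from this shift outside the 1 µl set. The amount of RNA relative to the spike-in is a value per tube, not per cell.

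Between AGRP and POMC neurons of fed mice, *Syndig1*, *Pak1* and *Pak3* had a lower normalized CPM in every AGRP than in every POMC library. *Dlg4* was higher in every one. Over all tested genes, 4.55% were wholly lower and 4.38% wholly higher in AGRP neurons. On the TPM scale *Syndig1* and *Dlg4* also did not overlap. *Pak3* did (AGRP up to 239.7, POMC from 227.0 TPM), as did *Pak1* (AGRP up to 421.3, POMC from 381.1 TPM). The log2 differences (AGRP minus POMC) were −2.66 ± 0.60 (SE) for *Syndig1*, −0.70 ± 0.13 for *Pak3*, −0.56 ± 0.16 for *Pak1* and 0.29 ± 0.15 for *Dlg4*. *Plk2* was at −1.32 ± 0.40 with overlapping libraries. For *Syndig1l*, *Ptk2*, *Ptk2b* and *Homer1* the libraries overlapped and the differences were between −0.37 and 0.23. *Arc* was at 1.48 ± 0.83, also with overlapping libraries, and at 2.93 on the spike-in scale. On the spike-in scale, on which the median of all genes was 0.82 in this comparison, *Pak1* and *Pak3* turned to 0.32 and 0.25, *Syndig1l* to 1.06, *Homer1* to 0.85 and *Ptk2b* to −0.31. The fed AGRP libraries are the same ones used above for the effect of food deprivation, and the values were not tested here.

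Compared per length, *Pak1*, *Pak3* and *Dlg4* were the most abundant of the 10 genes in all 4 groups, with group means of 207.6 to 625.7 TPM. This placed them at percentiles of 94.7 to 98.9 among tested genes. The order below them differed between groups. In fed AGRP neurons *Ptk2b* (2.44 TPM), *Syndig1* (3.05 TPM) and *Syndig1l* (6.28 TPM) were the lowest 3, at percentiles of 16.4, 19.0 and 29.6. In FD AGRP neurons *Plk2* came next after these 3, at 129.9 TPM, *Syndig1l* was at 46.8 TPM and *Ptk2b* at 37.0 TPM, at percentiles of 90.6, 74.2 and 69.5.

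**Figure D3:**
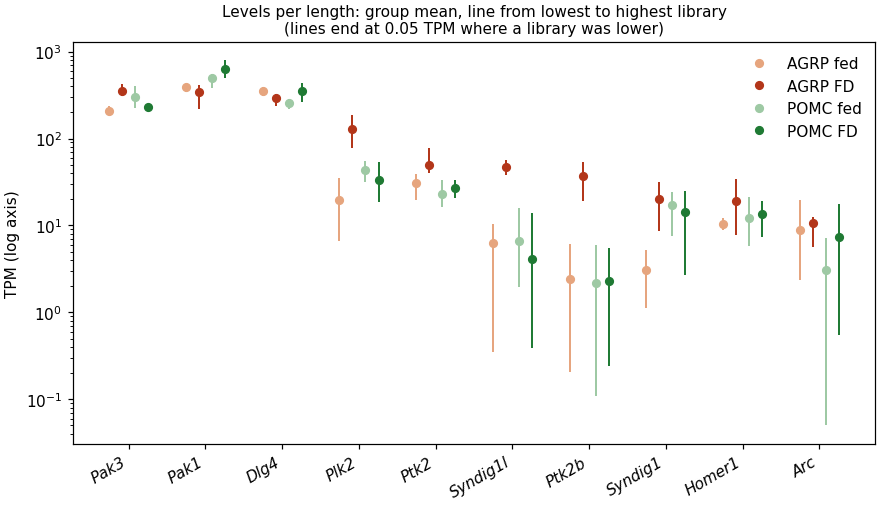
TPM on a log axis for the 10 genes, ordered by their level in FD AGRP neurons, with points for group means and lines from the lowest to the highest library. *Pak3*, *Pak1* and *Dlg4* are above the other genes in all groups, and *Syndig1l* and *Ptk2b* in FD AGRP neurons lie above the other 3 groups.

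Where the genes lie and what their promoters hold is given as background to these values. *Plk2* (chromosome 13, 110395044 to 110400844, plus strand) and *Homer1* (chromosome 13, 93303757 to 93404129, plus strand) share a chromosome, and *Pak3* lies on the X chromosome (143518591 to 143797796, plus strand), all on GRCm38. The span of *Pak3*, with its introns, was 279206 bases, against 5801 for *Plk2* and 3488 for *Arc* (chromosome 15, 74669083 to 74672570, minus strand). *Syndig1* is on chromosome 2 (149830788 to 150004392, plus strand), *Syndig1l* on chromosome 12 (84677278 to 84698807, minus strand) and *Ptk2b* on chromosome 14 (66153257 to 66281052, minus strand). Reads were counted without strand, and an exon of *Syndig1* overlaps 290 bases of the opposite-strand gene *C530025M09Rik*, which had a mean of 0.0649 TPM. *Syndig1l* overlaps 177 bases of the antisense gene *Gm48573*, and the other 8 genes overlap no other gene's exons in GENCODE M21.

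RefSeq promoters (GRCm38.p6) were at hand for 6 of the 10 genes, and *Syndig1l*, *Ptk2*, *Ptk2b* and *Arc* had no entry. The 250 bases before the transcript start were searched on both strands for the cAMP response element TGACGTCA, its 5-letter core TGACG (which every full element contains), the AP-1 site TGANTCA and the E-box CACGTG. Of 32851 such stretches, 1.55% held the full element, 17.8% the core, 6.75% an AP-1 site and 6.02% an E-box. The 3 stretches below end at the start used in the count table and belong to genes that lay higher in FD AGRP neurons, with matches in capitals. *Plk2* is at chr13:110394794-110395043, *Homer1* at chr13:93303507-93303756 and *Pak3* at chrX:143518341-143518590, all on the plus strand and written 5′ to 3′.
Plk2: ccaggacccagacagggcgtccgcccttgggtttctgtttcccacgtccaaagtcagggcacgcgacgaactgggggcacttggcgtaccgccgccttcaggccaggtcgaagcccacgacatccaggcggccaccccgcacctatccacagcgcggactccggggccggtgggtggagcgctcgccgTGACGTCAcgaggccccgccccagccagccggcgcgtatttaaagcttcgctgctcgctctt
Homer1: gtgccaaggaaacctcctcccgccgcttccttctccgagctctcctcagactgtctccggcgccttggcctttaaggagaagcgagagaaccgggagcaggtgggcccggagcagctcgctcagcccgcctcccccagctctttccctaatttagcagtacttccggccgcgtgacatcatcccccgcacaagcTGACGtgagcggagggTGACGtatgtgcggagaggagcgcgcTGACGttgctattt
Pak3: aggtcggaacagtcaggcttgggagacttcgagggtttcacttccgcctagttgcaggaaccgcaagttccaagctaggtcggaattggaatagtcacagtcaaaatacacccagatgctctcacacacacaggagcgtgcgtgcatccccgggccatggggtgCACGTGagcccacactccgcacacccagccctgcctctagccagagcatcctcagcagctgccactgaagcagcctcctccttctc

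The *Plk2* stretch held 1 full cAMP response element, beginning 62 bases before the start. *Homer1* held 3 copies of the core, beginning 56, 40 and 14 bases before the start, and *Pak3* held 1 E-box, beginning 86 bases before it. The *Syndig1* stretch had no match to the 4 motifs. *Pak1*, whose level overlapped between FD and fed AGRP neurons, has an entry at a start 54394 bases from the one in the count table that holds 2 full elements and 1 E-box, and an entry near the start used there with no match. *Dlg4*, whose level also overlapped, has an entry at a start 6897 bases from the one in the count table. It holds 1 core, beginning 76 bases before that start. The further entries of *Dlg4*, *Homer1* and *Pak3* had no match. A match is a string of letters only, and no binding was measured.

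By a fixed rule, the 3 genes whose log2 normalized CPM followed each of the 10 most closely over the 21 libraries were listed, among 8205 genes with a mean above 20 CPM in any group. *Pak3* was most like *Vgf* (r = 0.911), a secreted neuropeptide precursor whose group means were 56.1 normalized CPM in fed and 1517 in FD AGRP neurons and 563.3 in fed and 131.2 in FD POMC neurons, followed by *Ercc1* (0.872) and *Scg2* (0.87). *Plk2* was most like *Stt3b* (r = 0.907), a subunit of oligosaccharyltransferase, *Vgf* (0.905) and *Slc25a3* (0.898). For *Ptk2b* the closest were *Nmb* (r = 0.907), which encodes the peptide neuromedin B, *Rad21* (0.896) and *Hyou1* (0.892). *Ptk2* was closest to *Stk38l* (r = 0.91), a kinase, *Atf3* (0.904) and *N4bp2l1* (0.902), and *Syndig1l* to *Kcnc2* (r = 0.903), a potassium channel, *Phf8* (0.896) and *Rgs4* (0.891). *Syndig1* was most like *Ntng1* (r = 0.818), an axonal netrin-G protein, *Arrb1* (0.808) and *Peak1* (0.796). *Pak1*, highest in POMC neurons, was closest to *Dner* (r = 0.871), *Igsf10* (0.864) and *Prmt8* (0.861). The matches were weaker for *Homer1*, with *Top1* (r = 0.829), *Gabbr1* (0.805) and *Sept7* (0.798), for *Arc*, with *Larp7* (0.831), *Zdhhc5* (0.8) and *Sbno1* (0.787), and for *Dlg4*, with *Nup153* (0.773), *Gosr1* (0.699) and *Bcl7a* (0.67). These libraries fall into 4 groups, so that any gene with like group means gives a high r.

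A list of 65 other genes of the same machinery was written by function, of which 64 were tested. In AGRP neurons 6 were higher and 5 lower in FD mice at q under 0.05, together 17.2% of the list, where 10.3% of all genes passed. The median log2 fold change of the list was 0.28, against −0.02 for all genes. When scaled to the spike-in RNA, 0 of the 64 and 66 of all 16513 genes passed q with edgeR in AGRP neurons. At an unadjusted edgeR p under 0.05 on that scale it was 5 of the list (7.81%), against 10.4% of all genes. The calls did not go one way within the list, since those above came mainly from actin and SPAR-related genes and those below mainly from scaffolds.

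Of the 18 genes of PAK signalling and actin control, 2 rose in FD AGRP neurons and none fell, 11.1% of them and thus near the share of all genes. *Git2*, an adaptor of PAK-binding exchange factors, rose from 46.2 ± 10.1 to 105.9 ± 23.9 normalized CPM (SD; log2 fold change 1.20 ± 0.24, edgeR q = 0.00111), with no overlap of libraries. *Rac1*, the GTPase that activates PAK, rose by 0.42 ± 0.13 (log2, edgeR q = 0.0274). Of the 8 polo-like kinase and SPAR genes, 2 rose: *Sipa1l2* (1.34 ± 0.42, edgeR q = 0.0385) and *Sipa1l1*, which encodes SPAR itself, the target of PLK2 (0.53 ± 0.17, edgeR q = 0.0466). The libraries overlapped for both, and for *Sipa1l1* FD began at 207.6 and fed ended at 231.7 normalized CPM. *Sipa1l2* was at −0.15 on the spike-in scale, and its call held in 3 of the 11 fits that left out 1 AGRP library.

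Of the 20 tested scaffold genes, 1 rose and 4 fell in FD AGRP neurons, 25.0% of them. *Lrrc7*, which encodes densin-180, rose from 82.8 ± 22.5 to 178.3 ± 47.2 normalized CPM (SD; log2 fold change 1.11 ± 0.23, edgeR q = 0.00147). *Shank2* fell from 115.3 ± 33.0 to 67.2 ± 3.69 normalized CPM (−0.78 ± 0.19, edgeR q = 0.00569), and *Homer2* fell from 56.7 ± 16.7 to 24.8 ± 12.7 (−1.19 ± 0.36, edgeR q = 0.0297). *Dlg2* and *Dlg1*, relatives of *Dlg4* that encode PSD-93 and SAP97, fell by 0.60 and 0.57 on the log2 scale, with edgeR q of 0.0216 and 0.0232. The call for *Homer2* held in 5 of 11 fits that left out 1 library, and those for *Dlg2* and *Dlg1* in 9 and 8. Blocking by replicate number, although same-numbered libraries come from different mice, ended the calls for *Dlg2* and *Dlg1*. *Homer2* and *Homer1* had fitted changes of opposite sign, except on the spike-in scale, where *Homer2* was at −2.24 and *Homer1* at −0.16.

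Of the 4 subunits of the calcium/calmodulin kinase CaMKII, *Camk2a* fell from 378.6 ± 34.8 to 204.6 ± 47.9 normalized CPM (SD; −0.89 ± 0.17, edgeR q = 0.000637), with no overlap, and *Camk2d* rose by 0.53 ± 0.17 (edgeR q = 0.0376). None of the 8 partners of focal adhesion kinase, the 3 relatives of *Syndig1* and the 3 endocytic partners of Arc passed the test in AGRP neurons. Among those relatives, *Prrt2* was at 4.89 ± 1.74 normalized CPM in fed and 1.24 ± 1.00 in FD AGRP neurons (−1.98 ± 0.70, edgeR q = 0.0708), and is named here after its values were seen. *Plk3*, a polo-like kinase, also missed the threshold, at 8.59 ± 6.41 and 25.8 ± 10.6 normalized CPM (1.59 ± 0.53, edgeR q = 0.0509).

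**Figure D4:**
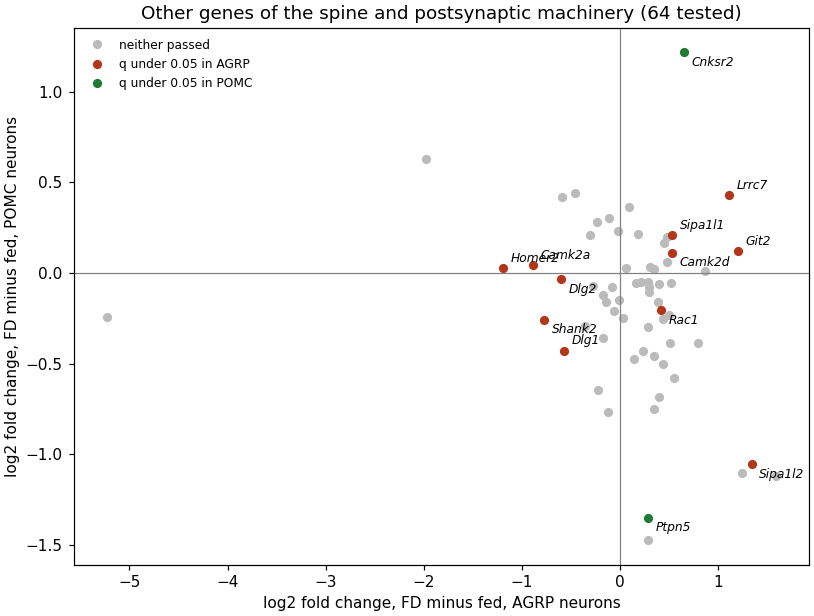
Each point is 1 of the 64 tested genes of the wider list, placed by its log2 fold change of FD against fed in AGRP neurons (horizontal) and in POMC neurons (vertical), and coloured by which comparison it passed at q under 0.05. *Git2*, *Lrrc7* and *Sipa1l2* lie to the right and *Homer2* and *Camk2a* to the left, *Ptpn5* and *Cnksr2* are the 2 genes called in POMC neurons, and the point at −5.23 is *Plk5*, a gene with 0 counts in all FD AGRP libraries.

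In POMC neurons 1 gene of the list rose and 1 fell, together 3.12% of it, where 0.375% of all genes passed. *Ptpn5*, which encodes STEP, a phosphatase that acts on PYK2 and on glutamate receptors, fell from 167.3 ± 35.2 normalized CPM in fed to 65.7 ± 2.96 in FD mice (SD, n = 5 each). The libraries did not overlap, and the fitted log2 fold change was −1.35 ± 0.22 (edgeR q = 0.00165). *Cnksr2*, a scaffold of the postsynaptic density, rose from 31.6 ± 9.63 to 73.6 ± 18.8 (1.22 ± 0.26, edgeR q = 0.025). This second call held in 3 of the 10 fits that left out 1 POMC library and was lost with limma-voom, with the compared groups alone and with the replicate block. Neither call held when scaled to the spike-in RNA, where q was 0.219 for *Ptpn5* with edgeR. On that scale only 1 of all 16513 genes passed q, so that a lost call says little of a single gene. Over the alternatives, that scale included, the log2 fold change of *Ptpn5* was −2.73 to −1.27. With TMM scaling the list's median was −0.09, against −0.02 for all genes.

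*Ptpn5* was also the gene of the list that differed most between the cell types in fed mice. It was at 32.9 ± 5.83 normalized CPM in fed AGRP neurons (log2 difference from POMC −2.35 ± 0.23, edgeR q = 9.52e-09). In all, 3 genes of the list were higher and 4 lower in fed AGRP than fed POMC neurons, 10.9% of it, where 7.57% of all genes passed. *Cnksr2* (1.79 ± 0.27), *Dlgap1* (1.35 ± 0.26) and *Dlg2* (1.07 ± 0.18) were higher, all of them scaffold genes. *Begain* (−1.24 ± 0.37), *Ppp1r9a*, which encodes the spine protein neurabin (−0.75 ± 0.14), and *Dlg1* (−0.60 ± 0.17) were lower, with edgeR q of 0.0357, 0.00029 and 0.0288. On the spike-in scale, where 349 of all 16513 genes passed q, 1 of these 7 calls, *Cnksr2*, held. *Ppp1r9a* turned to 0.20 and *Dlg1* to 0.07. The spike-in was added at 1 µl to 1, at 10 µl to 2 and by cell number to 2 fed AGRP libraries. In fed POMC libraries it was 3 at 1 µl and 2 by cell number. The calls for *Begain* and *Dlg1* held in 3 and 4 of 10 fits that left out 1 library and were lost with the replicate block.

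The response to food deprivation was tested for a difference between AGRP and POMC neurons in the wider list, where 9 genes had a higher and 1 a lower response in AGRP neurons. These were 15.6% of the list, where 6.71% of all genes passed. *Sipa1l2*, *Plk3*, *Ptpn5*, *Tiam1*, *Arhgef7*, *Shank1*, *Rhoa*, *Rac1* and *Ppp1r9a* had the higher response. *Camk2a* had the lower response, at −0.89 ± 0.17 (SE) in AGRP and 0.04 ± 0.18 in POMC neurons. Of the 18 genes of PAK signalling and actin control, 4 (22.2%) differed, all of them with the higher value in AGRP neurons. With counts scaled to the spike-in RNA, 0 genes of the list and 54 of all 16513 genes differed by this edgeR test. At an unadjusted edgeR p under 0.05 on that scale it was 4 of the list (6.25%), against 4.76% of all genes.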

How the data were processed

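RNA was sequenced from 21 libraries, each of hand-sorted AGRP or POMC neurons of 1 mouse. The deposited counts are whole reads per gene, made by the authors by trimming with cutadapt 1.7.1, removing abundant sequences with Bowtie2 2.1.0, aligning to mm10 with STAR 2.4.0i and counting without strand with HTSeq 0.6.1p1 on 35266 GENCODE genes. The deposited TPM values are the authors' length-scaled levels. The RNA of few cells was amplified, so floors of 3 counts cover counting error only, while SDs and standard errors include the spread between mice.

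The 5 summary entries and 92 ERCC entries stayed out of library sizes. Genes over 1 CPM in at least 3 libraries (16513) were fitted with edgeR 4.0.16 (quasi-likelihood, TMM, 1 fit of 4 groups, two-sided tests, Benjamini-Hochberg adjustment) in R 4.3.3. Each standard error is the size of the log2 fold change divided by the square root of F. The scripts were tested on simulated data. limma 3.58.1, DESeq2 1.42.0, other scalings and filters, blocks and each library left out were alternatives. The 10 genes, the list of 65 and the tests were chosen with earlier results of these data known. Text names all 10 genes, the up to 8 genes of the list with the largest change at q under 0.05 in each comparison, and the 3 closest genes by Pearson correlation; *Rac1*, *Sipa1l1*, *Camk2d*, *Prrt2*, *Plk5* and *Plk3* were added after their values were seen.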

Additional observations from a re-analysis of the deposited data

Results flagged for a closer look

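Among the 10 genes, 2 of 40 groups of libraries held 1 library far from the rest by Dixon's test, which chance gives in about 1 of 20 groups. *Syndig1l* was at 10.3 normalized CPM in FD POMC replicate 2, where the next highest FD POMC library was at 1.86. *Arc* was at 5.07 normalized CPM in FD AGRP replicate 1, where the next lowest FD AGRP library was at 11.5. Without these libraries the fitted log2 fold changes were −2.09 for *Syndig1l* in POMC neurons and 0.65 for *Arc* in AGRP neurons.

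In the wider list, 9 genes had a higher and 1 a lower response to food deprivation in AGRP than in POMC neurons by the interaction term (edgeR, q under 0.05), 15.6% of the 64 tested, where 6.71% of all genes passed. The list's median difference was 0.32 (log2), against 0.01 for all genes. The 8 with the largest differences follow, each as AGRP effect minus POMC effect.

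The phosphatase gene *Ptpn5* differed by 1.63 ± 0.31 (SE, edgeR q = 0.00105), falling in POMC neurons while its AGRP value was 0.28 ± 0.21 (edgeR q = 0.485). *Sipa1l2* differed by 2.39 ± 0.61 (edgeR q = 0.0142), with 1.34 in AGRP and −1.05 in POMC neurons. *Plk3*, a polo-like kinase, differed by 2.71 ± 0.75 (edgeR q = 0.0253), with 1.59 in AGRP and −1.12 in POMC neurons, neither of which passed on its own. These differences held in 21, 21 and 19 of the 21 fits that left out 1 library. None of them held when scaled to the spike-in RNA, where 54 of all 16513 genes passed this test. Over the alternatives, that scale included, the differences were 1.53 to 2.11 for *Ptpn5*, 2.15 to 2.97 for *Sipa1l2* and 2.28 to 3.41 for *Plk3*. The call for *Plk3* was also lost with the spike-in set as a block, and its difference was 2.01 without POMC fed replicate 2.

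Of the GTPase genes, *Tiam1*, an exchange factor for Rac, differed by 1.12 ± 0.33 (edgeR q = 0.0375). *Arhgef7*, the PAK-binding exchange factor, differed by 1.08 ± 0.31 (edgeR q = 0.0324), and *Rhoa* by 0.90 ± 0.27 (edgeR q = 0.0391). The scaffold gene *Shank1* differed by 0.94 ± 0.29 (edgeR q = 0.0493). All 4 lost the call when some single libraries were left out: it held in 11, 12, 10 and 6 of 21 such fits. *Tiam1* was also lost with limma-voom, the replicate block and the spike-in set block, *Arhgef7* with the replicate block, and *Shank1* with RLE scaling and the spike-in set block. *Camk2a* had the lower response in AGRP neurons, with a difference of −0.93 ± 0.24 (edgeR q = 0.0174) that held in all 21. None of these 5 held when scaled to the spike-in RNA, where 54 of all 16513 genes passed.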

How the results depend on the processing

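For the 6 of the 10 genes whose AGRP libraries did not overlap, the sign is fixed when 1 is left out. Their signs therefore say nothing of stability. With single libraries left out, *Pak1* ranged from −0.0006 to 0.157 and *Dlg4* from −0.097 to 0.039. *Homer1* (0.916 to 1.325) and *Arc* (0.252 to 1.069) stayed above 0. Scaling to the spike-in RNA gave −0.059 for *Pak3* and −0.33 for *Ptk2*, and a median of −0.11 over the 10 genes. The cause of the shift was not tested. With TMM scaling the median over the 10 genes was 1.08, and it was 1.01 to 1.20 with single libraries left out.

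In POMC neurons DESeq2 called 1 of the 10 genes. Leaving out single libraries gave 0 to 0. Values near 0 changed sign: *Ptk2b* to 0.026 with DESeq2, 0.00033 with RLE scaling, 0.017 in the fit of the compared groups alone, 0.39 with the replicate block and 0.13, 0.29, 0.22, 0.17 and 0.72 without single libraries (range −0.604 to 0.723); *Homer1* to −0.15 with the spike-in set as a block, −0.99 with spike-in scaling and −0.077, −0.047, −0.048 and −0.086 without single libraries (range −0.086 to 0.322); *Ptk2* to −1.22 with spike-in scaling and −0.015 without fed replicate 4 (range −0.015 to 0.225). Spike-in scaling also gave −1.11 for *Pak1* and −1.02 for *Dlg4*. Without a change of sign, *Ptk2b* went to −1.70 with spike-in scaling and −1.22 with the spike-in set as a block. Within the 1 µl set it differed by −0.83. Between fed AGRP and POMC neurons spike-in scaling gave 0.32 for *Pak1*, 0.25 for *Pak3*, 0.20 for *Ppp1r9a* and 0.069 for *Dlg1*. In that comparison *Ptk2b* went from 0.045 to −1.215 with the spike-in set as a block. The median over the 10 genes was 0.59 on the spike-in scale and −0.293 with TMM scaling. The TMM median was −0.455 to 0.092 with single libraries left out (0.092 without POMC fed replicate 5). *Sipa1l2* went to −0.15 in AGRP neurons with spike-in scaling.

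For the wider list, spike-in scaling with edgeR left 0 calls in AGRP, 0 in POMC and 0 in the interaction in either direction. At an unadjusted edgeR p under 0.05 it was 7.81%, 25.0% and 6.25% of the list, against 10.4%, 14.8% and 4.76% of all genes. Between the fed cell types it left 1 higher and 0 lower. Of all 16513 genes, 66, 1 and 54 passed q on that scale in AGRP, POMC and the interaction, and 349 between the fed cell types. With single libraries left out, AGRP neurons had 2 to 8 higher genes (2 or 3 without FD replicate 3 or fed replicates 1, 2 or 3) and 3 to 6 lower (3 without FD replicate 5 or fed replicate 4), POMC neurons 0 to 1 higher and 1 to 1 lower, the fed cell types 3 to 3 higher and 2 to 5 lower (2 without AGRP fed replicate 2 or 5), and the interaction 3 to 9 higher (3 without AGRP fed replicate 3, 4 without AGRP fed replicate 1 or 2, and 5 without AGRP FD replicate 3, POMC FD replicates 1, 2 or 4 or POMC fed replicates 1 or 2) and 1 to 2 lower (2 without AGRP FD replicate 4). The POMC call of *Cnksr2* gave 0 genes with limma-voom, with the compared groups alone and with the replicate block. DESeq2 gave 5 higher genes between fed cell types and 2 lower in the interaction.

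Same-numbered libraries come from different mice, and their deviations correlated by −0.19 to 0.12, so that the numbers do not pair them. A call lost with the replicate block therefore says little of the gene. With that block, 2 genes were lower between the fed cell types. Low counts, down to 0 for *Arc* and 3 for *Ptk2b* in single POMC libraries, limit the precision of these genes.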
